A study of Mus musculus with 20 samples.

Results

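Long non-coding RNAs (lncRNAs) were described in kidney and liver of mice that had received the BET bromodomain inhibitor JQ1. The genes were chosen by their level without the drug: every transcript of a gene had to carry the lncRNA biotype, and its mean in the 4 vehicle libraries of kidney or of liver had to reach 5 CPM (the reads of a gene, scaled to 1 common total of all reads in a library). This rule left 435 of 10808 lncRNA genes, among 55642 genes of all kinds, and 4800 of the lncRNA genes had no read in any library. Kidney contributed 369 of the 435 and liver 242, so that 176 genes passed in both organs, 193 in kidney only and 66 in liver only. A further 53 genes that mix lncRNA transcripts with other biotypes reached the limit and were not included.

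The animals were male mice of the inbred strain DBA/2J. Daily intraperitoneal JQ1 (50 mg/kg) or its vehicle was given over 3 weeks. Organs of the JQ1 treatment group (3 libraries each of kidney and liver) were collected when dosing ended and the mice were 10 weeks old. Those of the JQ1 recovery group (3 libraries each) were collected after 6 weeks free of the drug, when the mice were 16 weeks old. Vehicle had 3 libraries of the treatment time and 1 of the recovery time in each organ, and all 4 were pooled as the control. Wherever 4 vehicle values are listed, the last is the library of the recovery time. JQ1 treatment and JQ1 recovery animals differed in age as well as in time since the drug, and these cannot be told apart between them. A supplementary legend swaps the vehicle numbers between the time points and shortens the recovery, and the labels were followed here. Whether equally numbered kidney and liver libraries share an animal is not in the labels, and the p-values measure the spread between these libraries.

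LncRNAs are transcripts that are spliced and polyadenylated like messenger RNAs in most cases but hold no long open reading frame. Some act in the nucleus as scaffolds or in the silencing of neighbouring genes, others host small RNAs in their introns or exons, and for most no role is known. They tend to be present in fewer tissues than coding genes. BET proteins bind acetylated histones at promoters and enhancers and recruit factors that release paused RNA polymerase, and JQ1 occupies the pocket with which they hold the acetylated lysine.

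The largest rise of a lncRNA gene in both organs was that of Gm20634 (ENSMUSG00000070392), which lies in a histone gene cluster, and its sequence shows why its reads need care. In the GENCODE M21 annotation (GRCm38) it is a single exon of 2956 bases on the same strand as the histone genes H2ac18, whose start is 57 bases away, and H3c14, and the M21 transcript ID is the one of the files. Its sequence holds 2 copies of the stem-loop that ends replication-dependent histone messengers, a hairpin that takes the place of the poly(A) tail. The histone stem-loop consensus was searched on the transcript strand and was found at bases 479 to 494 and 1774 to 1789, in both places with the letters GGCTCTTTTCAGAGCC. These exact letters were in 29 of 55450 genes of M21 (0.0523%), and Gm20634 was the 1 gene to hold them among those of the 435 that are in M21. Both copies are shown with the motif in capitals and the bases that flank it.
Gm20634 bases from 479, with flanks: ctaaaaaGGCTCTTTTCAGAGCCacccact
Gm20634 bases from 1774, with flanks: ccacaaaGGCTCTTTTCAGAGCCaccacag

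Reads of 75 bases cannot separate Gm20634 from its neighbours over most of its length. Of its 2882 windows of 75 bases, 76.5% occur on the same strand in another gene and 88.8% on either strand. H3c14 holds 60.8% of them (bases 1132 to 2956), H3c15 20.5% (bases 1147 to 1812), H2ac18 15.8% and H2ac19 15.8% (both up to base 529), and H3c13 11.3%. A stretch from base 808 to base 1205, with 324 windows (11.2%), is in no other gene on either strand. The quantification therefore divided most of these reads among Gm20634 and the histone genes by its model, and H3c14, whose sequence lies within Gm20634, was given 0 reads in all 20 libraries.

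**Figure D1:**
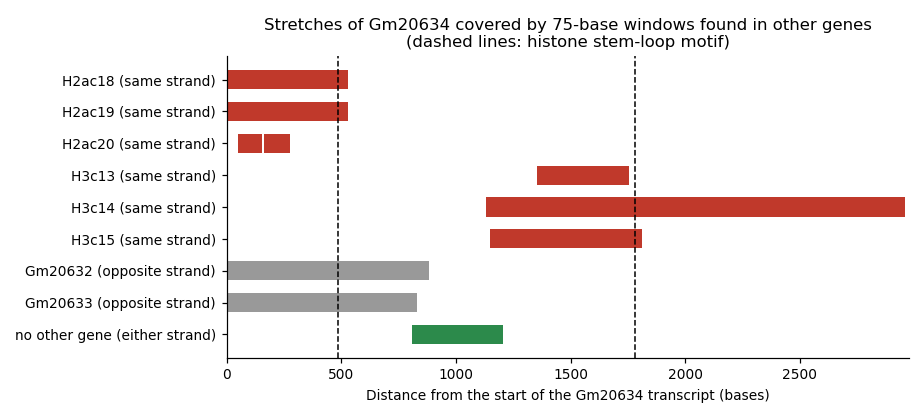
Position along the Gm20634 transcript (horizontal axis, in bases) of stretches covered by 75-base windows that also occur in other genes, from M21. Red bars are genes on the same strand, grey bars genes on the opposite strand, the green bar the stretch found in no other gene (bases 808 to 1205), and the dashed lines the 2 stem-loop motifs.

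The 435 genes were mostly uncharacterised. By symbol, 202 were Gm gene models, 102 Rik clones and 79 had an identifier only, while 19 carried a symbol that ends in os (opposite strand of a named gene) and 33 another name. A single transcript was listed for 196 of them, and the median longest transcript was 2044 bases, from 155 to 93147. In M21, 353 of the identifiers were found. Of these, 20 genes overlapped coding exons on the same strand and 92 on the opposite strand, and 102 started within 1000 bases of a coding start, 93 of them on the opposite strand. The strand setting of the quantification is not given in the sources used here, so reads of overlapping pairs may not be fully separated. At least 10% of the 75-base windows were shared with another gene for 90 genes, and none for 113.

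Most of the genes were present at low levels. In vehicle kidney, 160 of the 435 lay between 5 and 10 CPM, 183 between 10 and 100 CPM, 23 between 100 and 1000 CPM and 3 above. In vehicle liver, the numbers were 120, 107, 13 and 2, and 193 were under 5 CPM. The libraries held 13952510 to 26895318 reads in kidney and 11968500 to 17529910 in liver.

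Among JQ1 recovery livers, 2 of 3 libraries held kidney RNA, and the liver comparisons are given with and without them, apart from the DESeq2 counts and the fits that leave out a single library. Without both, JQ1 recovery liver is 1 library (replicate 1), and a fit then assumes that it varies like the libraries of the other groups. The summed level of 12 kidney marker genes reached 27.1% of the kidney mean in replicate 2 and 13.1% in replicate 3, against 0.113% in replicate 1 and 0.00352% to 0.0197% in the other liver libraries. The lncRNAs themselves showed the same. Of the genes that passed in kidney, 23 were under 0.1 CPM in vehicle liver, and their sum reached 27.8% and 13.9% of the kidney mean in these 2 libraries, against 0.128% in replicate 1 and 0.124% or less elsewhere in liver. The choice of the 23 fixed the low sum in the vehicle livers, but used no JQ1 library. D630029K05Rik, for example, stood at 28.5 and 22.5 CPM in JQ1 recovery replicates 2 and 3 and at 0.289 CPM or less in the other 8 liver libraries. The hepatocyte marker sum was 38104, 66421 and 72282 CPM in the JQ1 recovery livers, highest in replicate 1, against 78154 to 85000 CPM in vehicle.

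**Figure D2:**
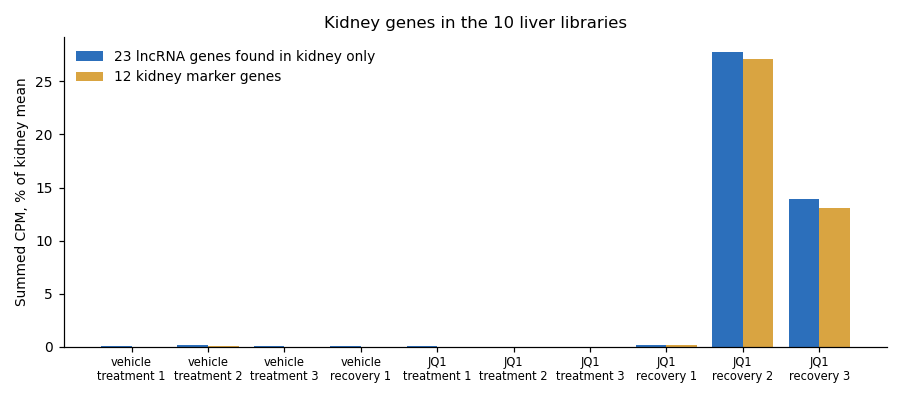
Summed CPM of 23 lncRNA genes found in kidney only (blue) and of 12 kidney marker genes (yellow) in each of the 10 liver libraries, as a percent of the kidney mean (bars start at 0). JQ1 recovery replicates 2 and 3 stand at 27.8% and 13.9% for the lncRNA genes, and every other liver library is at 0.128% or less. For the vehicle libraries this follows from the choice of the 23 genes.

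Gm20634 rose with JQ1 treatment in kidney and in liver, and stood near vehicle after recovery. In kidney its level (CPM scaled within the organ by TMM factors, as in all values per library that follow) was 87.5, 115.0 and 111.7 in the JQ1 treatment libraries, 47.6, 34.9, 36.6 and 44.1 in vehicle, and 47.4, 51.4 and 44.4 in JQ1 recovery. The mean was 105 ± 15.0 (SD, n = 3) against 40.8 ± 6.06 (n = 4) in vehicle, a fitted 2.57-fold rise (log2 fold change 1.36 ± 0.11 SE, adjusted p = 5.61e-06, edgeR quasi-likelihood test over all genes). No treated kidney overlapped with a vehicle or recovery kidney.

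In liver the JQ1 treatment libraries held 125.9, 144.7 and 160.4 CPM, vehicle 34.0, 22.7, 32.0 and 38.6, and JQ1 recovery 31.6, 43.0 and 30.4. The log2 fold change was 2.17 ± 0.17 (adjusted p = 8.64e-05), 4.51-fold, and without the 2 livers that held kidney RNA it was 2.16 ± 0.16 (adjusted p = 4.71e-05). Against JQ1 recovery, which the rule did not use, it was higher by 1.13 ± 0.12 in kidney (adjusted p = 4.19e-05) and by 2.04 ± 0.19 in liver (adjusted p = 0.00114). In JQ1 recovery against vehicle it differed by 0.23 in kidney (adjusted p = 0.585) and by 0.14 in liver (adjusted p = 0.755). Without the mixed livers, with 1 recovery library, the liver values were 2.18 ± 0.27 for treatment against recovery (adjusted p = 0.00526) and -0.01 ± 0.24 for recovery against vehicle (adjusted p = 0.996). The treatment change was smaller in kidney than in liver by 0.80 ± 0.22 on the log2 scale, a difference that was not called (adjusted p = 0.258).

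The histone genes that share the most of its sequence were read together with it to remove the division of reads among them. Other histone genes that share less, such as H3c13 (11.3% of windows), were not in the sum. Summed over Gm20634, H3c14, H3c15, H2ac18 and H2ac19, kidney held 128.1, 170.9 and 153.0 CPM in JQ1 treatment, 63.2, 50.3, 53.4 and 66.7 in vehicle and 63.7, 69.0 and 67.1 in JQ1 recovery. The sum rose by 1.37 ± 0.10 in kidney (adjusted p = 1.63e-06) and by 2.31 ± 0.22 in liver (adjusted p = 0.00151, and 2.30 ± 0.22 with adjusted p = 0.00367 without the mixed livers), so that the rise did not depend on how reads were divided within this group. Singly, H2ac19 rose in kidney by 1.61 ± 0.18 (adjusted p = 0.000115), while H2ac18 (1.26 ± 1.29, adjusted p = 0.702) and H3c15 (-0.31 ± 0.27, adjusted p = 0.621) were not called. How much of the signal belongs to a lncRNA and how much to polyadenylated histone messengers was not tested.

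**Figure D3:**
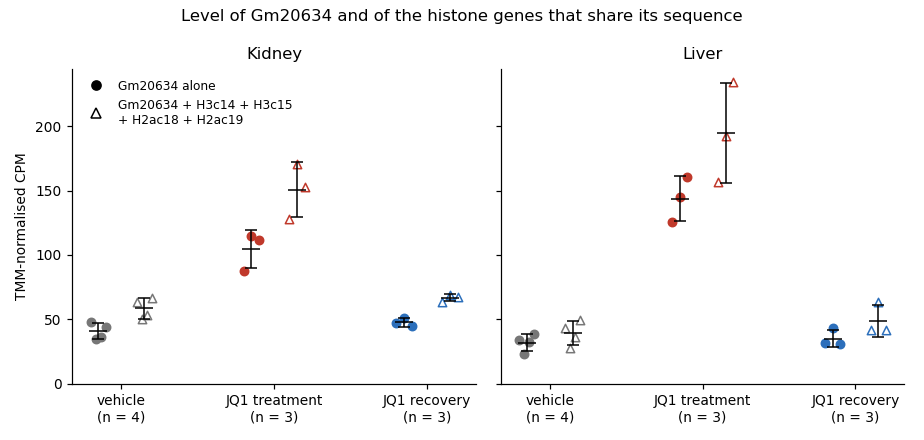
TMM-normalised CPM (vertical axis, from 0) of Gm20634 alone (filled circles) and summed with the histone genes H3c14, H3c15, H2ac18 and H2ac19 (open triangles) in each library of kidney and liver, with mean and SD as black bars. The treated libraries sit at 87.5 to 115.0 CPM in kidney and 125.9 to 160.4 CPM in liver for Gm20634 alone, above every vehicle and recovery library of their organ.

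In treated kidney, more lncRNA genes fell than rose. Of 409 of the genes that passed the count filter in kidney, 31 were called (7.58%), 24 lower and 7 higher than vehicle, beside 4.13% of all genes tested (1.4% higher, 2.73% lower). Among genes at 5 CPM or more in vehicle kidney, the share was 8.13% of the lncRNA genes and 5.55% of those with coding transcripts. Over all 409 the median log2 fold change was -0.04, beside -0.01 over all genes tested. The vehicle libraries that chose the genes also enter this comparison, so the counts are a description. In every one of the 31, the 3 treated libraries lay wholly outside the range of the 4 vehicle libraries, as they did in 88 of the 409 (21.5%) and in 15.2% of all genes tested. Kidney had 100 of the 409 genes at an unadjusted p below 0.05 (24.4%), beside 17.1% of all genes.

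As a class, the genes took a larger share of kidney reads after JQ1, and Malat1 made up the difference. They held 4.59% ± 0.15 of the reads in JQ1 treatment (SD, n = 3), 3.97% ± 0.15 in JQ1 recovery (n = 3) and 3.90% ± 0.11 in vehicle (n = 4). Without Malat1 the shares were 1.42% ± 0.08, 1.45% ± 0.06 and 1.41% ± 0.06. In liver the shares with Malat1 were 1.90% ± 0.12, 2.13% ± 0.35 and 1.76% ± 0.05, and the JQ1 recovery livers ran from 1.91% to 2.53%.

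Some cell type marker sums differed between the groups as well. In these bulk tissues fewer cells of a type and less RNA per cell cannot be told apart. The summed kidney markers were lower in treated kidneys (16373 to 18188 CPM) than in vehicle (18495 to 27818 CPM) and JQ1 recovery (25178 to 27374 CPM), of the 12 markers 3 rose and 2 fell, and Kap, an androgen-dependent proximal tubule gene, made up 10050 to 10810 CPM of the treated sums against 12850 to 21810 CPM in vehicle. Lymphocyte markers summed to 5.53 to 9.53 CPM in treated kidney and 10.9 to 21 CPM in vehicle, with 1 of 5 tested lower. Red cell markers summed to 9089 to 12088 CPM against 4793 to 8255 CPM, with 3 of 6 higher. Adipocyte markers reached 338.3 CPM in JQ1 treatment replicate 1 but 20.0 and 93.0 CPM in the other treated kidneys (vehicle 28.8 to 107.0 CPM), with 0 of 7 called. Macrophage markers reached 94.6 CPM in the same library but 27.1 and 33.6 CPM in the other treated kidneys (vehicle 38.8 to 43.5 CPM), with 1 of 6 lower. This was Csf1r, the largest part of the vehicle sum (mean 16.7 CPM in treated kidney, 26.0 CPM in vehicle). No other tested macrophage marker had a log2 fold change below 0, and their median was 0.91 with Csf1r included. The part of these shifts in the lncRNA results was not tested.

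The largest fall in kidney was that of Gm48281. It stood at 2.64, 4.37 and 3.36 CPM in JQ1 treatment, 19.1, 18.4, 13.9 and 37.3 CPM in vehicle and 38.0, 31.9 and 29.9 CPM in JQ1 recovery. The log2 fold change was -2.64 ± 0.39 (adjusted p = 0.0093), and without JQ1 treatment replicate 1 its adjusted p was 0.0564. The vehicle library of the recovery time was at the level of the recovered kidneys, above the 3 younger vehicle libraries. Gm44785 followed, with 0.974, 1.87 and 1.18 CPM against 6.28, 3.13, 4.81 and 8.25 CPM in vehicle (-2.01 ± 0.31, adjusted p = 0.00081), and with 5.82 to 6.56 CPM in JQ1 recovery.

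ENSMUSG00000121034, a gene without a symbol, was at an even level in treated kidneys and fell in liver too. It was measured at 2.92, 2.91 and 2.94 CPM in JQ1 treatment and at 10.2, 8.81, 15.0 and 6.67 CPM in vehicle (-1.80 ± 0.23, adjusted p = 0.000128). JQ1 recovery held 7.03, 7.47 and 6.35 CPM, near the lowest vehicle library, which was the one of the recovery time. 0610031O16Rik fell from 1.45 to 3.31 CPM in vehicle to 0.523 to 1.04 CPM (-1.43 ± 0.36, adjusted p = 0.0302), a call that was lost without JQ1 treatment replicate 2 (adjusted p = 0.107) and in 3 other fits that left out a library.

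Of the 10 largest falls in kidney, 5 lay between -1.32 and -1.12 on the log2 scale, and a sixth was at -0.91. Gm13855 held 2.71, 2.95 and 4.65 CPM after JQ1 and 7.52, 10.3, 9.48 and 6.93 CPM in vehicle (-1.32 ± 0.21, adjusted p = 0.000866). Dio3os, transcribed opposite the gene of the thyroid hormone deiodinase Dio3 in an imprinted region, held 1.74, 2.62 and 2.24 CPM against 5.73, 3.94, 4.94 and 6.78 CPM (-1.26 ± 0.24, adjusted p = 0.00433). Gm15848, next to the polymeric immunoglobulin receptor gene Pigr, held 2.29, 1.46 and 3.00 CPM against 5.17, 5.56, 5.44 and 4.67 CPM (-1.23 ± 0.23, adjusted p = 0.00401). Groups did not overlap in any of these. Gm44386 had the smallest adjusted p among the falls, with 4.59, 5.19 and 6.12 CPM against 10.1, 11.8, 13.6 and 12.7 CPM in vehicle and 10.6, 10.8 and 10.8 CPM in JQ1 recovery (-1.18 ± 0.15, adjusted p = 8.36e-05). ENSMUSG00000120212 fell by 1.12 ± 0.20 (adjusted p = 0.00201). D630029K05Rik, the most abundant of these and nearly absent from liver, went from 190.8, 179.3, 213.5 and 168.1 CPM to 72.0, 122.6 and 105.1 CPM (-0.91 ± 0.17, adjusted p = 0.0194). Its call was lost without JQ1 treatment replicate 3 (adjusted p = 0.0634) or vehicle replicate 1 of the treatment time.

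The remaining 14 falls were smaller, from 0.25 to 0.84 on the log2 scale. AI314278, a kidney transcript, was among the tightest, with 80.7, 96.5 and 90.5 CPM in JQ1 treatment and 125.4, 129.4, 129.1 and 134.4 CPM in vehicle (-0.54 ± 0.07, adjusted p = 0.000128), while the recovered kidneys held 142.5 to 145.7 CPM. Gm15638 fell from 26.9, 26.2, 24.1 and 24.6 CPM to 15.1, 15.7 and 11.8 CPM (-0.84 ± 0.11, adjusted p = 0.000115). Among all 31 genes, 17 stayed called when any single kidney library was left out.

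The 7 rises in kidney, Gm20634 apart, were below 0.7 on the log2 scale. ENSMUSG00000121042 rose from 144.1, 113.5, 131.7 and 106.5 CPM to 195.1, 189.4 and 188.9 CPM (0.62 ± 0.08, adjusted p = 0.000194), with 134.0 to 142.1 CPM in JQ1 recovery. Malat1, a nuclear RNA of speckles and the most abundant of the 435 by reads, rose from 24599, 25800, 24125 and 22469 CPM to 36398, 29571 and 33531 CPM (0.45 ± 0.08, adjusted p = 0.00374), and stood at 26065, 22261 and 27092 CPM in JQ1 recovery. With counts rebuilt from length-scaled TPM, the rise of Malat1 was 0.50 and was not called (adjusted p = 0.0763).

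The other 4 calls among the rises were more fragile. Eprn (Ephemeron, known from embryonic stem cells) was at 15.6, 20.9 and 17.6 CPM against 13.7, 13.9, 13.3 and 12.7 CPM (0.43 ± 0.12, adjusted p = 0.0402), and its call was lost in 9 of 10 fits that left out a library. ENSMUSG00000121137 rose by 0.41 ± 0.11 (adjusted p = 0.0382) and lost its call in 7 of 10. Hoxb3os, antisense to the homeobox gene Hoxb3 and known as a kidney transcript, was at 36.1, 40.8 and 43.4 CPM against 32.2, 30.6, 30.1 and 27.6 CPM (0.41 ± 0.09, adjusted p = 0.0107), and lost its call without JQ1 treatment replicate 3 (adjusted p = 0.0835). Mir22hg was at 49.9, 38.5 and 43.3 CPM against 33.7, 33.5, 35.2 and 33.7 CPM (0.36 ± 0.09, adjusted p = 0.0284), and lost it in 4 of 10, with 0.165 the highest adjusted p, without JQ1 treatment replicate 1, the library with the high adipocyte and macrophage markers.

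**Figure D4:**
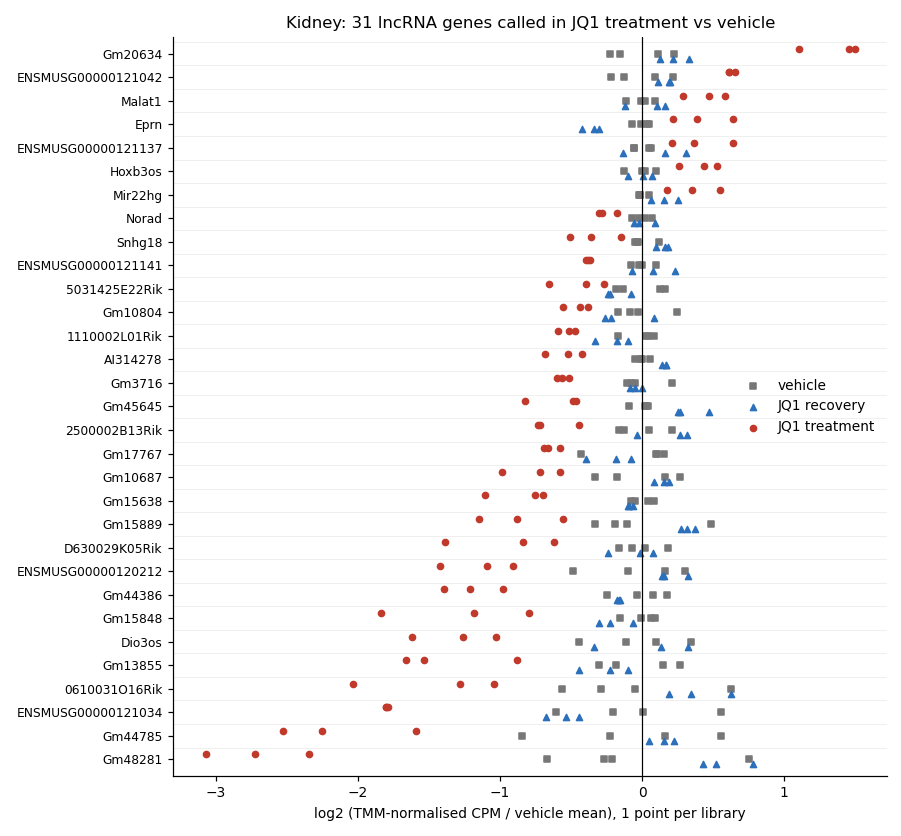
Level of each of the 31 lncRNA genes called in kidney, JQ1 treatment against vehicle, as log2 of TMM-normalised CPM over the vehicle mean (horizontal axis), with 1 point per library. Treated libraries (red circles) lie outside the vehicle range (grey squares) for all 31 genes, 24 to the left and 7 to the right, and recovered libraries (blue triangles) have their mean within that range for 21.

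Mir22hg hosts the microRNA miR-22 in an exon, and its mature products are shown with the seed (bases 2 to 8) in capitals, from RefSeq (GRCm38.p6, plus strand). MicroRNAs of mature length are not captured by these libraries, so the values are for the host transcript alone.
mmu-miR-22-5p (chr11:75463734-75463755): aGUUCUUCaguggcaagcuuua
mmu-miR-22-3p (chr11:75463772-75463793): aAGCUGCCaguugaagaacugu

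By known role, calls in kidney were scattered, with at most 2 in any group. Of 7 hosts of small nucleolar RNAs among the 435, Snhg18 fell (71.6, 91.4 and 79.0 CPM against 98.9, 97.9, 99.4 and 110.1 CPM, -0.33 ± 0.08, adjusted p = 0.0262), and the group's median was -0.12. Snhg3, Snhg12, Snhg20, Snhg9, 2410006H16Rik and Epb41l4aos lay between -0.20 and 0.07 and were not called. The call of Snhg18 was lost in 5 of 10 fits that left out a library, with 0.12 the highest adjusted p, without JQ1 treatment replicate 1. Of 4 microRNA hosts, Mir22hg rose, while Mirt2 (-0.95 ± 0.30, adjusted p = 0.0989), Lncpint (-0.35 ± 0.20, adjusted p = 0.407) and Ftx (0.17 ± 0.08, adjusted p = 0.276) were not called.

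Nuclear and scaffold RNAs counted 8 genes, of which Malat1 rose and Norad, a cytoplasmic RNA that binds Pumilio proteins, fell (110.4, 107.6, 103.7 and 114.6 CPM to 96.5, 89.7 and 88.2 CPM, -0.25 ± 0.07, adjusted p = 0.0439). Norad lost its call in 9 of 10 fits that left out a library, and every 75-base window of its M21 transcript is also in Gm7292. Neat1, the scaffold of paraspeckles, was at 339.9, 501.7 and 405.8 CPM against 360.4, 277.2, 367.6 and 473.3 CPM (0.17 ± 0.19, adjusted p = 0.72), with overlapping groups. Firre, Oip5os1, Hoxb5os and Kcnq1ot1 were not called. The group's median was 0.09. Among the 3 genes of the list of imprinted RNAs, which does not hold Dio3os (called, as given above), 0 was called by edgeR or DESeq2 and 1 had an unadjusted p below 0.05, namely Kcnq1ot1, which silences neighbours of Kcnq1 (0.19 ± 0.08, adjusted p = 0.224). Airn was at 0.01 ± 0.20 and Peg13 at -0.32 ± 0.26. Of the X-inactivation centre, Jpx was at 0.03 ± 0.13 beside Ftx, and of 3 renal developmental and Hox antisense RNAs Hoxb3os rose, with Pantr1 at 0.08 ± 0.15. Over all lists, 5 of 25 genes tested in kidney were called by edgeR, beside 4.13% of all genes, and 7 by DESeq2, beside 6.07%. DESeq2 added Mirt2 and D630033O11Rik. The latter and 0610005C13Rik were the 2 metabolic lncRNAs of liver tested in kidney, with log2 fold changes of -0.30 and 2.10 as lowest and highest. Each had an unadjusted p below 0.05 by edgeR, which called neither. In liver 0 of 25 was called by edgeR, 2 had an unadjusted p below 0.05 (Mir22hg and Norad), and DESeq2 called 1, Mir22hg, beside 1.95% of all genes. There the 4 metabolic lncRNAs of liver had a median of -0.25, with C730036E19Rik at -0.64 ± 0.35 (adjusted p = 0.605).

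Some lncRNAs that fell had a coding neighbour in M21 that fell with them. Gm15848 starts 2600 bases from Pigr, the receptor that carries immunoglobulin A across epithelia, and Pigr went from 139.0, 130.3, 162.5 and 157.2 CPM to 14, 32.8 and 23.8 CPM in treated kidney (-2.62 ± 0.27, adjusted p = 0.00181). Snhg18 and the semaphorin gene Sema5a start 148 bases apart on opposite strands, and Sema5a went from 74.1, 76.4, 76.2 and 73.0 CPM to 37.1, 52.7 and 58.3 CPM (-0.60 ± 0.11, adjusted p = 0.00459). Gm44386 lies 10048 bases from Pcbp1, a gene of an RNA-binding protein, which fell by 0.28 ± 0.07 (adjusted p = 0.0319). Others moved without their neighbour. Gm10687 fell by 0.75 ± 0.14 (adjusted p = 0.00655) beside Mcam, 16 bases away (-0.24 ± 0.26, adjusted p = 0.712), and Hoxb3os rose beside Hoxb3 (0.14 ± 0.13, adjusted p = 0.651). In counts, the nearest coding gene was called for 3 of 24 called lncRNAs with a tested neighbour (12.5%), all in the same direction. It was called for 16 of 258 lncRNAs that were not called (6.2%), 12 in the same direction.

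The stretch between the starts of Snhg18 and Sema5a is shown because both genes fell. It was taken from RefSeq (GRCm38.p6, chr15:32244663-32244812, plus strand), whose starts differ slightly from those of M21 given above. The stretch is 150 bases long and 79.3% G and C, and holds 15 CG steps. GC boxes searched as GGGCGG on both strands, with overlaps allowed, are in capitals and number 5, and 28.6% of windows of the same length in 32851 RefSeq promoters hold at least 1. These letters are a match, and no binding was measured.
Snhg18 to Sema5a: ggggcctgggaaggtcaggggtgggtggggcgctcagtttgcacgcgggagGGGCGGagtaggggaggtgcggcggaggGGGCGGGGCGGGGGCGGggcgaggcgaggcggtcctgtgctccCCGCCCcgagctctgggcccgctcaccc

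After recovery, no lncRNA gene was called against vehicle in kidney (0 of 409 by edgeR), beside 0.00583% of all genes. At an unadjusted p below 0.05 were 35 (8.56%), beside 9.16%, and DESeq2 called 1, beside 0.6%. Of the 31 genes called at the end of treatment, the recovery mean was within the vehicle range for 21, and the recovery change was under 0.5 times the treatment change for 29. Their median absolute log2 fold change was 0.63 in treatment and 0.17 in recovery. The 31 were chosen by their treatment change, so a smaller recovery change follows in part from the choice. These values are a description, and the same shares over all genes were not computed. The gene nearest to a call was Gm12678, at 41.4, 29.1 and 33.2 CPM in JQ1 recovery against 20.2, 24.3, 21.5 and 24.5 CPM in vehicle and 25.0, 22.8 and 26.8 CPM in JQ1 treatment (recovery against vehicle 0.61 ± 0.12, adjusted p = 0.146). It was the gene that DESeq2 called (adjusted p = 0.00558), and is named here after its values were seen. Only 1 vehicle kidney had the age of the recovered animals. Without it 4 of 409 genes were called in recovery (0.978%), beside 1.41% of all genes, all higher, namely Gm12678, Gm48281, BC049987 and ENSMUSG00000121093, and each of the 4 had its highest vehicle value in the library left out. The levels of BC049987 were 12.6, 13.5 and 12.8 CPM in JQ1 recovery, 12.5 CPM in that library and 4.50 to 8.75 CPM in the younger vehicle kidneys.

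JQ1 treatment against JQ1 recovery has no library of the rule on either side, and here too more genes fell than rose. The vehicle libraries still entered the filter, the scaling and the shared spread of the fit. In kidney 40 of 409 genes were called (9.78%), 33 lower and 7 higher in treatment, beside 7.31% of all genes (4.91% lower, 2.41% higher). With only the compared groups fitted, 43 were called, 36 lower and 7 higher, beside 871 lower and 405 higher of 16399 genes of all kinds. Among genes at 5 CPM or more in vehicle kidney, the shares were alike, 10% of the lncRNA genes and 9.82% of those with coding transcripts. The treated libraries are the same as in the comparison with vehicle, so the values of both are given side by side.

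Gm48281 was at -3.22 ± 0.41 against recovery (adjusted p = 0.00291, with -2.64 against vehicle) and Gm44785 at -2.16 ± 0.32 (adjusted p = 0.000467, with -2.01 against vehicle). B630019A10Rik, chiefly a liver transcript, was at 0, 0.187 and 0.177 CPM in treated and 0.581, 1.17 and 0.972 CPM in recovered kidney (-2.72 ± 0.70, adjusted p = 0.0226). Gm15348 was at 1.74, 1.20 and 1.47 CPM against 5.23, 7.36 and 6.23 CPM (-2.12 ± 0.48, adjusted p = 0.0244), while its vehicle libraries spread from 2.06 to 8.62 CPM. 0610031O16Rik (-1.83, with -1.43 against vehicle), Dio3os (-1.33, with -1.26), ENSMUSG00000120212 (-1.32, with -1.12), ENSMUSG00000121034 (-1.25, with -1.80), Gm47414 (-1.16) and Gm15889 (-1.16, with -0.84) completed the 10 largest falls. B630019A10Rik, Gm15348 and Gm47414 each lost their call in 4 or 5 of 10 fits that left out a library.

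Higher in treated than in recovered kidney were Ctcflos, Gm20634, Eprn, ENSMUSG00000121042, Hoxb3os, Malat1 and Brip1os. Eprn was at 15.6, 20.9 and 17.6 CPM against 10.0, 10.6 and 10.9 CPM (0.78 ± 0.13, adjusted p = 0.000723), a call kept in all 10 fits that left out a library, with vehicle between both groups at 12.7 to 13.9 CPM. Ctcflos was at 4.31, 0.710 and 1.35 CPM against 0.407, 0.427 and 0.400 CPM (2.31 ± 0.61, adjusted p = 0.0281), and without JQ1 treatment replicate 1 its adjusted p was 0.191. Brip1os differed by 0.30 ± 0.08 (adjusted p = 0.032) and lost its call in 5 of 10 such fits, Malat1 lost it without JQ1 recovery replicate 2 (adjusted p = 0.0688), and Hoxb3os in 2 of 10. For the 40 genes, the nearest coding gene was called in 9 of 32 cases (28.1%), 7 in the same direction. For genes not called it was 22 of 250 (8.8%), 12 in the same direction. Among the 9 were Pigr (-2.35), Sema5a (-0.49, adjusted p = 0.0173), Pcbp1 (-0.41, adjusted p = 0.0026), Slc35b4 beside Gm13855 (-0.31, adjusted p = 0.0259) and Apob, the apolipoprotein of low-density lipoproteins, beside Gm48633 (-0.53, adjusted p = 0.0244). Fzd4 beside AI314278 moved the other way (0.35, adjusted p = 0.0199).

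In liver, JQ1 treatment changed 4 of 407 genes (0.983%), with 2 rises and 2 falls, beside 0.495% of all genes. Among genes at 5 CPM or more in vehicle liver, the share was 1.24% of the lncRNA genes and 0.707% of those with coding transcripts. Besides Gm20634, the gene that rose was Gm10076, from 485.8, 461.1, 489.1 and 467.0 CPM to 768.1, 746.0 and 711.7 CPM (0.64 ± 0.10, adjusted p = 0.0126), with 403.4, 414.3 and 462.4 CPM in JQ1 recovery, and without the mixed livers the rise was 0.63 ± 0.08 (adjusted p = 0.000103). Of its 75-base windows 51.5% are also in Rpl41, a ribosomal protein gene, which rose by 0.67 ± 0.11 (adjusted p = 0.0129), and the sum of both rose by 0.65 ± 0.11 (adjusted p = 0.0167). Its own call was lost in 5 of 10 fits that left out a library (adjusted p = 0.117 without JQ1 treatment replicate 2). In kidney the sum with Rpl41 was called against vehicle (0.27 ± 0.07, adjusted p = 0.0379), while Gm10076 alone was not. Against JQ1 recovery the kidney sum differed by 0.13 ± 0.08 and was not called (adjusted p = 0.332).

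ENSMUSG00000121034 and Gm13775 fell in liver. ENSMUSG00000121034 went from 4.86, 4.05, 2.70 and 4.75 CPM to 0.145, 0.239 and 0.427 CPM (-3.90 ± 0.44, adjusted p = 0.00138) and stood at 2.34, 2.36 and 3.75 CPM in JQ1 recovery. Gm13775, in the cluster of the major urinary proteins, went from 16.4, 26.0, 23.7 and 32.0 CPM to 4.96, 9.96 and 6.92 CPM (-1.75 ± 0.25, adjusted p = 0.0105), and lost its call without JQ1 treatment replicate 3 (adjusted p = 0.116) or 1. Without the mixed livers it was at -1.77 ± 0.29 (adjusted p = 0.0196), and ENSMUSG00000121034 at -3.92 ± 0.44 (adjusted p = 3.69e-05). Its neighbour Mup19, of a pheromone-binding protein secreted in urine, was not called (-0.57 ± 0.28, adjusted p = 0.571), while Mup1, beside Gm13773, fell by 1.12 ± 0.23 (adjusted p = 0.0482). In all 4 genes the treated libraries did not overlap with vehicle, as in 50 of the 407 (12.3%) and in 12.9% of all genes tested. The number called was 2 without JQ1 treatment replicate 1 or 3, 7 without JQ1 recovery replicate 1 and 11 without JQ1 recovery replicate 2 (2.7%, beside 1.82% of all genes).

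Without the 2 livers that held kidney RNA, a fit chosen after the data were seen, 12 of 407 genes were called (2.95%), 9 lower and 3 higher, beside 2.3% of all genes. The 4 genes above were among them. Hectd2os fell from 70.0, 44.8, 77.6 and 72.5 CPM to 21.7, 27.7 and 23.8 CPM (-1.45 ± 0.19, adjusted p = 0.00395). ENSMUSG00000120212 fell from 3.57, 3.26, 4.26 and 3.30 CPM to 0.869, 1.12 and 0.939 CPM (-1.89 ± 0.31, adjusted p = 0.00144). AW112010, known from activated immune cells, fell from 68.4, 51.4, 78.5 and 69.3 CPM to 38.6, 46.4 and 43.9 CPM (-0.65 ± 0.12, adjusted p = 0.00672). Beside it, lymphocyte markers summed to 3.15 to 4.75 CPM in treated liver and 14.2 to 36.1 CPM in vehicle. In the fit of all liver libraries, 5 of these markers were tested, all 5 with a log2 fold change below 0, and 0 were called. Igkc and Ighm made up most of the vehicle sum (means 10.07 and 7.73 CPM). The part of lymphocyte markers in the result was not tested. Gm39079 (-0.86), AI463229 (-0.73), 4732465J04Rik (-0.56) and Gm36041 (-0.40) fell as well. Mir22hg rose from 45.9, 57.7, 47.4 and 48.1 CPM to 64.0, 68.9 and 65.9 CPM (0.40 ± 0.10, adjusted p = 0.0276).

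JQ1 recovery liver against vehicle gave 0 of 407 genes by edgeR (58 at an unadjusted p below 0.05, 14.3% beside 16.7% of all genes), beside 0.0343% of all genes. DESeq2 called 11 (2.7%), beside 4.55% of all genes. Without the 2 mixed libraries, with 1 recovery library, the count was 0 (17 at an unadjusted p below 0.05, 4.18% beside 5.19% of all genes), beside 0.00643%. Of the 11 called by DESeq2 with all libraries, 9 were higher in recovery. They were Snhg18 (2.47), Hoxb3os (3.61), Eprn (2.36), Bc1 (0.96), Gm15638 (1.20), Gm26947 (1.23), Gm28196 (1.90), Gm43190 (2.46) and Gm47101 (2.115). C730027H18Rik (-0.997) and ENSMUSG00000120904 (-0.645) were lower. Snhg18, Hoxb3os, Eprn and Bc1 were each at their highest liver level in replicate 2, the library with the most kidney RNA. The part of kidney RNA in these calls was not tested. Without replicate 1, so that the mixed livers alone stood for recovery, 64 of 429 genes were called (14.9%), beside 13.6% of all genes. Liver treatment against recovery gave 12 of 407 (2.95%), 9 lower and 3 higher, beside 2.29% of all genes. At 5 CPM or more in vehicle liver, it called 2.89% of the lncRNA genes and 2.89% of genes with coding transcripts. Without the mixed libraries it gave 9 (2.21%), 6 lower and 3 higher, beside 0.887%, against the 1 recovery library that remained, and 3 genes were called both ways. It gave 65 of 429 (15.2%) without JQ1 recovery replicate 1, beside 13.9%, and 3 to 5 without 1 of the JQ1 treatment libraries or JQ1 recovery replicate 3.

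Those 3 genes were Gm20634 (2.04 ± 0.19 with all libraries), ENSMUSG00000121034 (-3.37 ± 0.46, adjusted p = 0.00492) and Gm10076 (0.80 ± 0.11, adjusted p = 0.00492). Eprn was at 0.0724, 0.239 and 0.171 CPM in treated livers and at 0.880, 4.99 and 2.29 CPM in JQ1 recovery (-4.03 ± 0.83, adjusted p = 0.0244), the last 2 being the mixed libraries. The libraries of kidney held 10.0 to 20.9 CPM of it, and the part of kidney RNA in the difference was not tested. D630024D03Rik (-2.54), BC049987 (-2.20), Gm13775 (-1.77), Gm33104 (-1.69), Gm13773 (-1.62), Gm39079 (-1.44) and ENSMUSG00000120732 (-0.61) were lower and ENSMUSG00000120149 (1.41) higher with all libraries, and none of these 8 was called without the mixed ones. Called without them and not with them were Hectd2os (-1.88), ENSMUSG00000120212 (-2.62), AI463229 (-1.26), Gm20337 (-1.40), Gm36041 (-0.63) and ENSMUSG00000120777 (1.08).

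Between organs, 2 genes were called at the end of treatment in both with all libraries, Gm20634, higher, and ENSMUSG00000121034, lower. Without the mixed livers Mir22hg, higher, and ENSMUSG00000120212, lower, joined them. The test of the difference between organs in the treatment change called 1 of 435 genes (0.23%), beside 0.169% of all genes, with 36 at an unadjusted p below 0.05 (8.28%, beside 7.74%) and 4 called by DESeq2, beside 0.615%. This was Gm15638, which fell in kidney as given above and in liver stood at 5.43, 5.18 and 5.03 CPM in JQ1 treatment against 2.73, 1.52, 2.94 and 4.17 CPM in vehicle (difference of log2 fold changes, kidney minus liver, -1.69 ± 0.29, adjusted p = 0.0154). The call was lost without kidney JQ1 treatment replicate 3 (adjusted p = 0.0656) or liver JQ1 treatment replicate 2, and 2 genes were called without kidney vehicle replicate 3 of the treatment time or liver JQ1 recovery replicate 2. Without the mixed livers 4 genes were called (0.92%), beside 0.609%, namely Gm15638 (-1.66), 4833411C07Rik (-1.70), Gm39079 (0.77) and ENSMUSG00000121042 (0.62).

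In the JQ1 treatment libraries, which hold no library of the rule and no mixed liver, 284 of 435 were called between organs (65.3%), 156 higher in kidney and 128 in liver, beside 56.9% of all genes. The filter, scaling and spread of this fit still came from all 20 libraries. Since 259 of the 435 reached 5 CPM in 1 organ only, a share above that of all genes follows from the choice of genes and is not read as a result. In the JQ1 recovery libraries 253 were called (58.2%), beside 46.6%, and without the mixed livers 247 (56.8%), beside 41.8%. The direction of small differences rests on the scaling. The factors of the fit lowered the kidney to liver ratio by 0.82 on the log2 scale (1.77-fold) relative to plain CPM, and 30 of the 128 genes called higher in liver were higher in kidney by plain CPM.

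Large differences are therefore given in plain CPM, from summed reads of the 3 treated libraries of each organ, with a floor of 3 reads over the group. Of the genes higher in kidney, 45 differed at least 10-fold and 14 at least 100-fold, and of those higher in liver 39 and 17. D630029K05Rik held 101 CPM in kidney and 0 reads in liver, at least 1373-fold higher. AI314278 held 87.8 CPM against 1 read in liver. Gm10804 (36.3 CPM) and Pantr1, a transcript next to the transcription factor gene Pou3f3 (18.7 CPM), had 0 reads in liver, at least 491-fold and 253-fold higher. On the other side, Gm29966 held 894 CPM in liver and 0.353 CPM in kidney, 2530-fold, and Gm31583 held 66.6 CPM in liver and 0 reads in kidney, at least 1335-fold higher. The metabolic lncRNA 1810008I18Rik held 68.6 CPM in liver and 0.0832 CPM in kidney (5 reads), and 9030622O22Rik 19.1 CPM and 0 reads. Of the 193 genes that passed the rule in kidney only, 115 were called higher in kidney and 3 in liver, and of the 66 that passed in liver only, 65 were called higher in liver, directions that the rule largely fixed.

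**Figure D5:**
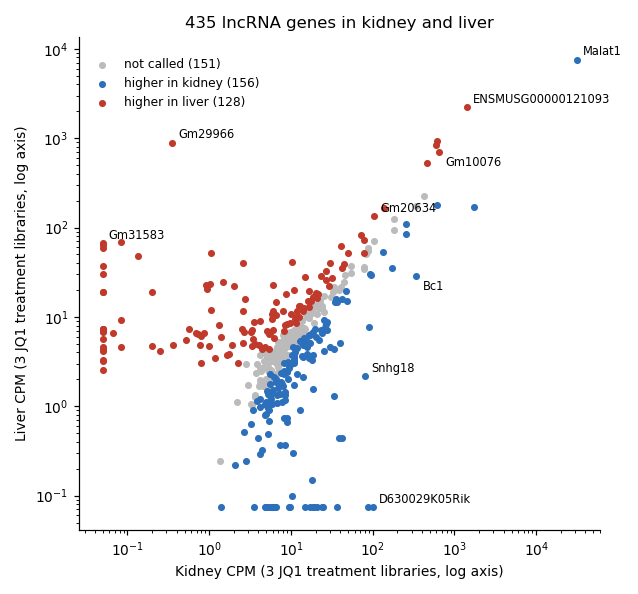
Level of the 435 lncRNA genes in the JQ1 treatment libraries of kidney (horizontal axis) and liver (vertical axis), in plain CPM on log axes, with values under 3 reads drawn at that floor. The 156 genes called higher in kidney (blue), among them D630029K05Rik and Bc1, lie below and the 128 called higher in liver (red), among them Gm29966 and Gm31583, mostly above the grey genes that were not called, 30 of the 128 being higher in kidney by plain CPM.

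Compared per length, in TPM, Bc1 and Malat1 had the highest means in kidney and Malat1 and Bc1 in liver. TPM of very short transcripts is raised by their small effective length. In vehicle kidney the order was Bc1 (40309 ± 3371 TPM, SD, n = 4), a short RNA of 173 bases known for control of translation in neurons, and Malat1 (22470 ± 1940 TPM), then Gm42428 (8195 ± 526), Gm47551 (2891 ± 181), Gm10076 (2599 ± 224), Snhg9 (2022 ± 266), ENSMUSG00000120819 (982 ± 249), Gm42031 (575 ± 70.2), ENSMUSG00000120158 (406 ± 28.2) and Gm12976 (339 ± 20.1). The ranges of mean ± SD of Gm47551 and Gm10076 overlapped, and those of the other neighbours in the order did not. In vehicle liver the order was Malat1 (3608 ± 576 TPM), Bc1 (2600 ± 721), Gm10076 (1392 ± 78.4), Gm42428 (1373 ± 119), Snhg9 (945 ± 252), Gm47551 (624 ± 90.4), ENSMUSG00000120904 (549 ± 74.5), ENSMUSG00000121093 (310 ± 24.0), ENSMUSG00000120012 (262 ± 69.1) and Gm12976 (201 ± 12.7). There the ranges of mean ± SD overlapped for Malat1 and Bc1, Gm10076 and Gm42428, Snhg9 and Gm47551, Gm47551 and ENSMUSG00000120904, ENSMUSG00000121093 and ENSMUSG00000120012, and ENSMUSG00000120012 and Gm12976. Among these, Malat1 in kidney and Gm10076 in liver changed with JQ1 treatment. Bc1 was at 326.8 to 428.8 CPM in treated and 314.0 to 384.2 CPM in vehicle kidney (0.05 ± 0.11, adjusted p = 0.866).

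At the limit of 5 CPM, the genes just inside in kidney were Gm36371 (5.01 CPM), ENSMUSG00000120583 (5.02) and 4833408A19Rik (5.03), and those just outside Gm17259 (4.99), Gm35031 (4.97) and Gm31152 (4.95). In liver Gm2912 (5.04 CPM), Gm35986 (5.05) and Gm28791 (5.07) were just inside and ENSMUSG00000120084 (4.99), Gm49797 (4.95) and A830008E24Rik (4.92) just outside, the last 2 passing through kidney.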

How the data were processed

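RNA of kidney and liver was sequenced by the study as single-end reads of 75 bases after poly(A) selection. Trimming by the authors used fastp 0.20.1 and quantification Salmon 1.10.0 (submitters' notes), and the study's methods name GENCODE vM30 on mm10. The strand setting is not given in the sources used here. The files deposited by the authors hold an estimated count and a TPM for each transcript of each of the 20 libraries, and a count that several genes could claim is divided by a model.

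The estimated counts of a gene's transcripts were added up and rounded. For each organ, its 10 libraries in 3 groups were fitted by edgeR 4.0.16 under R 4.3.3 (scaling by TMM, filterByExpr with minimum count 10 and minimum total 15, robust quasi-likelihood F-test, two-sided), and organs were compared in a fit of all 20 libraries in 6 groups. Every adjusted p, unless another tool is named, comes from edgeR, with the Benjamini-Hochberg adjustment across every gene tested (17158 in kidney, 14559 in liver, 17710 in both), and a gene was called, and is said to have risen or fallen, below 0.05. Values per library are TMM-normalised CPM, TPM served comparisons between genes, and DESeq2 1.42.0 was an alternative. The fit was tested on simulated data. GENCODE M21 (GRCm38) and RefSeq (GRCm38.p6), of another annotation version than the files, served for overlaps, neighbours and sequence, and no gene coordinates of the files are given.

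Genes named are Gm20634, the 10 largest rises and falls among called genes of each comparison (5 each way between organs), the 10 highest by TPM in each organ, 3 on each side of the limit, the genes of role lists and the nearest coding genes of called genes. The genes, lists and rules were chosen with earlier results of these data known.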

Additional observations from a re-analysis of the deposited data

Results flagged for a closer look

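Of 58 groups of 4 vehicle libraries tested, 6, all in kidney, held a library far from the other 3 by Dixon's ratio (the gap to the nearest value over the whole range). The groups were those of genes called in their organ, and most were in kidney. The limit used is passed by chance in about 1 in 20 groups. These genes were chosen by calls that use the same vehicle values, so the count cannot be judged against that rate. The recovery-time library was lowest for Gm17767 (ratio 0.879) and for Gm45645 (0.864) and highest for Snhg18 (0.878). Vehicle replicate 3 of the treatment time was highest for D630024D03Rik (0.868), Gm3716 (0.837) and Mir22hg (0.859). The vehicle values of Snhg18 were 97.9 to 99.4 CPM in the younger libraries and 110.1 CPM in the older one, all above the treated libraries, and those of Mir22hg were 33.5 to 33.7 CPM in 3 libraries and 35.2 CPM in the fourth, all below the treated ones.

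Gm15638 changed differently in kidney and liver (difference -1.69, kidney minus liver, adjusted p = 0.0154 by edgeR over all genes). It was lower than vehicle in all 3 treated kidneys and higher than vehicle in all 3 treated livers.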

How the results depend on the processing

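For 51 called changes of named genes, 713 values under the alternatives kept direction and call, 157 kept direction and lost the call, and none reversed. The counts of called genes follow, with counts over all genes beside the larger ones. For kidney treatment against vehicle (31 genes), no filter on low counts gave 51 and DESeq2 52, and leaving out single libraries gave 21 to 35. Over all genes, no filter gave 413 higher and 671 lower of 28734, and DESeq2 called 6.07%. For kidney recovery (0) the counts were 5, 1 and 0 to 4. Here no filter gave 108 higher and 74 lower of 28734 genes of all kinds, and DESeq2 called 0.6%. For kidney treatment against recovery (40), no filter gave 61 and single libraries left out 27 to 51. Of 28734 genes of all kinds, no filter gave 665 higher and 1079 lower. For liver treatment against vehicle (4), fitting only the compared groups gave 12, DESeq2 9, leaving out the mixed livers 12 and single libraries 2 to 11. There, fitting only the compared groups called 177 higher and 191 lower of 13860 genes of all kinds. For liver recovery (0), no filter and DESeq2 each gave 11 and single libraries 0 to 64. Over all genes, no filter gave 151 higher and 75 lower of 26915, and DESeq2 called 4.55%. For liver treatment against recovery (12), no filter gave 25, length-scaled TPM 6, only the compared groups 4, DESeq2 32 and single libraries 3 to 65. Over all genes, no filter gave 326 higher and 283 lower of 26915, and DESeq2 515 and 643 of 14559. Length-scaled TPM gave 90 and 73 of 14701, and only the compared groups 13 and 20 of 13924. For the organ difference (1), DESeq2 and leaving out the mixed livers each gave 4 and single libraries 0 to 2. For kidney against liver in recovery (253), a limit of 10 CPM, which leaves fewer genes, gave 147, and single libraries 204 to 261. Apart from the limit, the causes were not tested. Alternatives that leave out the mixed livers were chosen after the data were seen.

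Deviations from the group mean correlated at -0.13 to 0.10 between same-numbered libraries, and at -0.037 to 0.047 between those of kidney and liver. Libraries of different numbers were not set beside them, so whether libraries share an animal cannot be told from these values. With the replicate block the counts were 28, 0, 36, 4, 0, 9, 1 and 256 in the order above. Genes near 5 CPM are limited by depth, and 2 of the largest kidney falls rest on treated levels below 2 CPM.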
